A study of Mus musculus with 19 samples.

Results

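The collagen chain genes are those whose symbol in the array annotation has the form Col, a type number, a and a chain number. Of 18820 genes measured by a probe set with a single symbol, 42 met this rule, each represented by its brightest probe set over all 19 arrays. Col9a3 and Col7a1 were left out because their probe sets carry a further symbol, Tcfl5 and Mir711. The 42 genes comprise 11 fibril-forming chains, 6 chains of type VI, 6 of type IV, 8 fibril-associated chains, 4 transmembrane chains, 3 short-chain network chains of types VIII and X, 2 multiplexins and 2 others (Col26a1 and Col28a1).

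Collagens are secreted proteins in which 3 chains wind into a triple helix. The fibril-forming types give tissue its tensile strength, type IV builds the basement membrane that surrounds each fat cell, and type VI forms beaded filaments that are abundant around adipocytes. Chains are hydroxylated and folded in the endoplasmic reticulum, secreted, trimmed and crosslinked outside the cell, so a transcript level is only the first step towards matrix.

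Expression was measured in differentiated 3T3-L1 cells, an established line of mouse fibroblasts that turns into lipid-storing adipocytes in culture. All cells were without serum before and during treatment. For 48 h they received 250 µM palmitic acid (PA, 16 carbons, no double bond, n = 4), palmitoleic acid (PMA, written PMO in the array titles, 16 carbons and 1 double bond, n = 4), stearic acid (SA, 18 carbons, no double bond, n = 4) or oleic acid (OA, 18 carbons and 1 double bond, n = 3). Control cells (n = 4) received albumin and ethanol, the carrier and solvent that all acid-treated cells also had. Values are log2 expression, differences are log2 differences ± SE from limma, and a gene passed at a Benjamini-Hochberg adjusted p under 0.05 over all 18820 genes. The 4 comparisons with control share the same 4 control arrays, the cells are 1 line in a dish, and fewer cells of a type cannot be told apart from less RNA per cell.

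The arrays had medians of 5.23 to 5.43 and correlated in pairs at 0.988 to 0.998. PA replicates 2 and 4 stood apart on the first principal component (31.2% of the variance), at -27.4 and -13.8, and PMA replicates 1 and 4 on the second (13.7%), at 17.1 and 11.9. The adipocyte markers Adipoq and Fabp4 lay at the 99.9th percentile of brightness, and Dlk1, a preadipocyte marker, at the 99.2nd. The 5 macrophage markers lay between the 7.9th (Adgre1) and the 54th (Cd68), and the 4 endothelial markers between the 18.9th (Kdr) and the 33.4th (Cdh5). The 8 adipocyte markers averaged 11.435 to 11.531 over PA arrays, 11.463 to 11.512 over PMA, 11.528 to 11.587 over SA and 11.524 to 11.619 over OA, against 11.480 to 11.507 over control arrays, so that all SA and OA arrays lay above all controls. The 7 measured preadipocyte and fibroblast markers averaged 9.29 to 9.43 over PA arrays, 9.42 to 9.53 over PMA, 9.35 to 9.42 over SA and 9.33 to 9.45 over OA, against 9.36 to 9.41 over control arrays, with all PMA arrays above all controls. The 4 chondrocyte markers were the dim Acan, Matn1 and Comp, at the 21.8th, 23.8th and 39.4th percentile of brightness, and Sox9, at the 87th. They averaged 5.75 to 5.95 over PA arrays, 5.79 to 5.91 over PMA, 5.78 to 5.81 over SA and 5.79 to 5.82 over OA. Control arrays averaged 5.67 to 5.77, and all PMA, SA and OA arrays lay above all controls. Median differences from control in PA, PMA, SA and OA were -0.02, 0.01, 0.05 and 0.06 for the adipocyte markers. They were -0.0018, 0.08, 0.01 and 0.01 for the preadipocyte and fibroblast markers, and 0.11, 0.12, 0.08 and 0.08 for the chondrocyte markers. The median collagen differences given further on were 0.13, 0.11, 0.07 and 0.07. Medians of the smooth muscle and myofibroblast markers were 0.07, 0.07, -0.01 and 0.03. Those of the macrophage markers were 0.09, 0.04, 0.01 and -0.02, and of the endothelial markers 0.12, 0.07, -0.01 and 0.01. Of these marker lists, only the chondrocyte medians, from mostly dim probe sets, were similar to the collagen medians in every acid. The part of these shifts in the collagen results was not tested.

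The promoters of 5 chains are shown because the chains passed the test (Col6a1 and Col11a1), partner one that did (Col1a2, with Col1a1) or are head-to-head neighbours described together. Each window runs from 250 bases before to 50 bases after a transcript start annotated in RefSeq (GRCm38.p6), 5′ to 3′ on the gene's own strand. For Col11a1 and Col4a1 that start lies inside the gene's listed span, short of its outermost start. Capitals mark CCAAT, the box bound by the factor NF-Y, and GGGCGG, the GC box bound by the Sp1 family, on either strand (as ATTGG and CCGCCC on the opposite one).
Col6a1 (chr10:76725995-76726294, minus strand): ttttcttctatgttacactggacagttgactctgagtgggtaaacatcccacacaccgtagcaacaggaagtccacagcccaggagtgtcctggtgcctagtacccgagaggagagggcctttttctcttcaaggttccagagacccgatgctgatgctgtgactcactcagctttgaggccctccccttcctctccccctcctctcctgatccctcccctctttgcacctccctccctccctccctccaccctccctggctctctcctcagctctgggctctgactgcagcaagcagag
Col1a2 (chr6:4505368-4505667, plus strand): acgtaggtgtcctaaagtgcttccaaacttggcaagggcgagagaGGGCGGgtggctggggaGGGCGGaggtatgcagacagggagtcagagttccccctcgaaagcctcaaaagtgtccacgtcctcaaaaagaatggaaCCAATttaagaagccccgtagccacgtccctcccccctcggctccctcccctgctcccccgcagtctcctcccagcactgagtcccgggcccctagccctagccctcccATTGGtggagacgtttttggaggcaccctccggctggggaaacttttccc
Col11a1 (chr3:114030290-114030589, plus strand): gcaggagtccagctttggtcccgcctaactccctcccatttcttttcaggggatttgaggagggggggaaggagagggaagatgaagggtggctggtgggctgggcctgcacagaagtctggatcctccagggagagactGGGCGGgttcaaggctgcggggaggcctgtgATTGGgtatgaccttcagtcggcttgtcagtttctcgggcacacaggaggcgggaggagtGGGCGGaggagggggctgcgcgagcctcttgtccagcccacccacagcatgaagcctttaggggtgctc
Col4a1 (chr8:11312777-11313076, minus strand): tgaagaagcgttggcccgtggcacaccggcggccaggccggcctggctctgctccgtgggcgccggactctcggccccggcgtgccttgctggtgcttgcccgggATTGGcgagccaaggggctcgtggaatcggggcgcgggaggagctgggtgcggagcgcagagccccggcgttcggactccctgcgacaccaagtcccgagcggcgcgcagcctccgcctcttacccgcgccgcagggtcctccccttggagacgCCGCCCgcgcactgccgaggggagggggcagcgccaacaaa
Col4a2 (chr8:11312555-11312854, plus strand): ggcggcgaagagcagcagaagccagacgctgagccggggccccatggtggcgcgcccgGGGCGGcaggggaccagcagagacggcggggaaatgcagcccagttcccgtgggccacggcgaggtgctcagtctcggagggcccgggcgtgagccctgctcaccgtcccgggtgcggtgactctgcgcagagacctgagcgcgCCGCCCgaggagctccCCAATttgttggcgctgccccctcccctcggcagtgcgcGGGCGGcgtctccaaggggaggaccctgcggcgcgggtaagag
The Col6a1 window held neither motif. The Col1a2 window held 2 CCAAT and 2 GGGCGG matches, Col11a1 1 and 2, Col4a1 1 and 1, and Col4a2 1 and 3, and none of the 5 held TATAAA. The Col4a1 and Col4a2 windows overlap by 78 bases, so they share letters. Of 37 windows of 34 collagen genes, 22 (59.5%) held GGGCGG and 12 (32.4%) CCAAT, against 35.7% and 37.4% of all 32851 windows, while TATAAA was in 5 (13.5%) and in 13.6%. A match is a description of the letters, not a site or a cause.

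Collagen transcripts tended to be slightly higher with each acid, and few single genes passed the test. In PMA 2 collagen genes rose, Col1a1 by 0.26 ± 0.05 (1.19-fold) and Col6a1 by 0.20 ± 0.04 (1.15-fold), each with an adjusted p of 0.0463. In OA 2 rose, Col11a1 by 0.23 ± 0.05 (adjusted p = 0.0411) and Col6a1 by 0.20 ± 0.05 (adjusted p = 0.0423). None passed in PA or SA and none fell in any acid. Col6a1 also rose in the mean of the 4 acids, by 0.17 ± 0.03 (adjusted p = 0.0458). These counts of 2, 2 and 1 of 42 stand beside 0.191% of all genes called higher in PMA, 0.457% in OA and 0.101% in the mean of the acids, and beside 0.106% in SA and 0% in PA. Of all genes 0.0744% fell in PMA, 0.0584% in SA, 0.404% in OA and 0% in PA.

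The direction was more widely shared than the calls. Differences were above 0 for 39 of 42 collagen genes in PA, 40 in PMA, 37 in SA and 32 in OA, while 61.7%, 78.5%, 58.1% and 56.7% of all genes were. The median collagen difference was 0.13 in PA, 0.11 in PMA, 0.07 in SA and 0.07 in OA, against 0.03, 0.06, 0.02 and 0.02 over all genes. At an unadjusted p under 0.05 stood 19 collagen genes in PA (45.2%, against 10.9% of all genes on the higher side), 12 in PMA (28.6% against 14.5%), 11 in SA (26.2% against 5.64%) and 10 in OA (23.8% against 7.99%), every one of them higher. Groups did not overlap for 7 collagen genes in PA (3.9% of all genes), 10 in PMA (9.29%), 10 in SA (4.88%) and 10 in OA (9.72%), again all higher than control. Bright genes separate more often. Among the brightest 10% of genes they were 5 of 9 collagens in PA (4.04% of all bright genes), 7 in PMA (20.7%), 6 in SA (12.2%) and 6 in OA (21.5%). All genes are read from the same RNA, so these counts are not independent observations. After cyclic loess between arrays the collagen medians were 0.11 in PA, 0.04 in PMA, 0.05 in SA and 0.04 in OA, all above those of all genes. Without PA replicates 2 and 4 the PA median was 0.06, and without PMA replicates 1 and 4 the PMA median was 0.05.

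**Figure D1:**
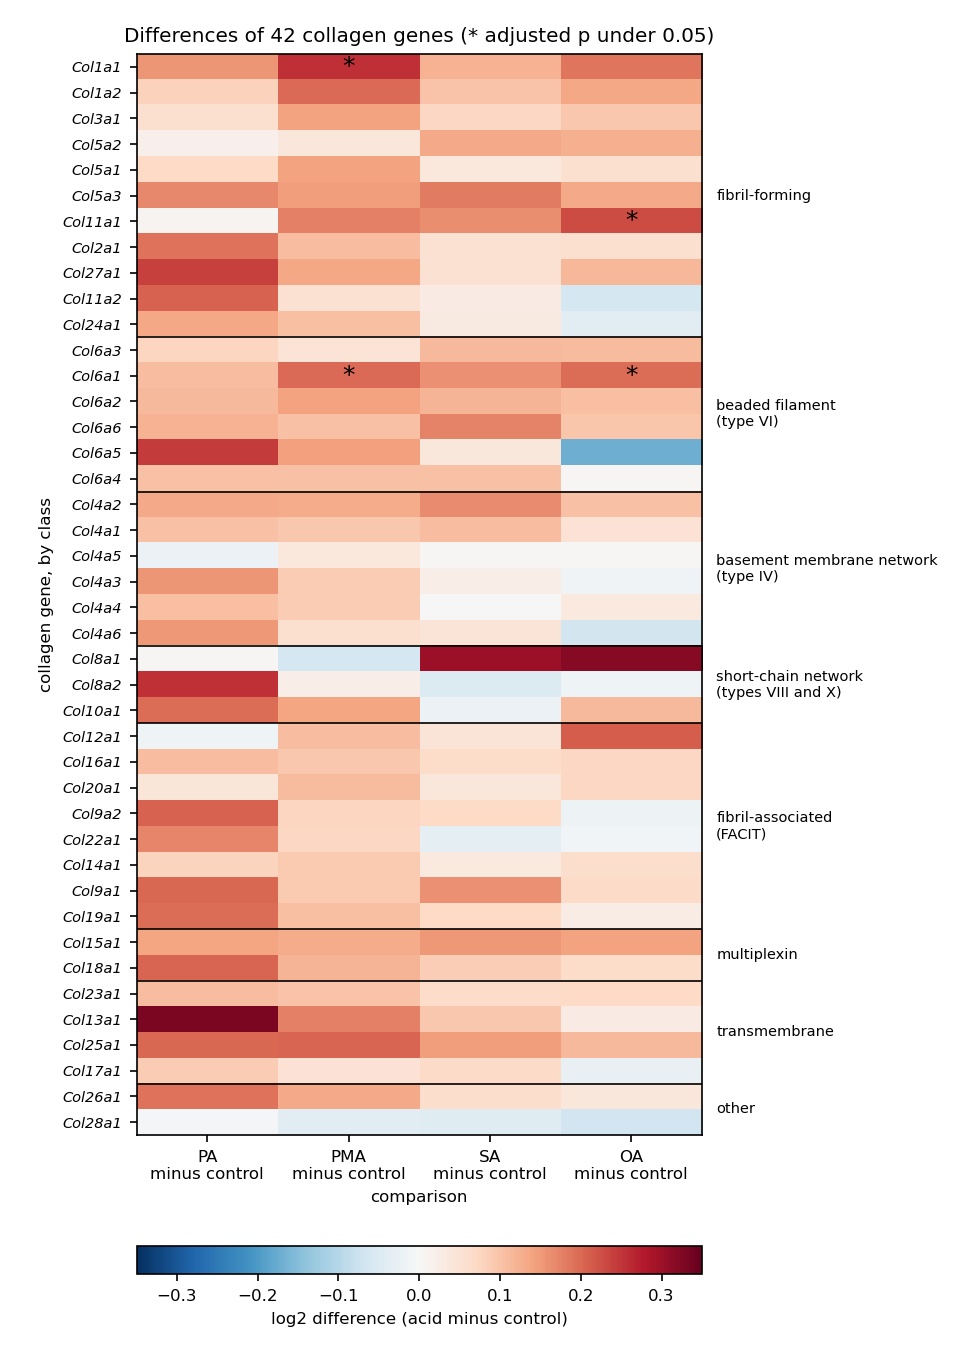
Log2 difference of each acid from control for the 42 collagen genes, ordered by class and within a class by brightness; columns are PA, PMA, SA and OA, and stars mark an adjusted p under 0.05. Red, a level above control, fills most cells, and the 4 stars stand at Col1a1 and Col6a1 in PMA and at Col11a1 and Col6a1 in OA.

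Col1a1, Col4a1, Col4a2, Col5a3 and Col6a1 were higher on each of the 15 acid arrays than on any of the 4 control arrays. These are 5 of 42 collagen genes (11.9%), against 0.372% of all genes. After cyclic loess the collagen count was 2, Col1a1 and Col6a1, against 0.239% of all genes. Without PA replicates 2 and 4 it was 6, against 0.781% of all genes. Without 1 array at a time it was 5 or 6, against 0.377% to 0.925% of all genes, the highest share being without control replicate 1.

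Among fibril-forming chains, Col1a1 and Col1a2 encode the chains of type I collagen, the main fibril of connective tissue, and Col3a1 that of type III. Col1a1 was 11.24, 11.38, 11.26 and 11.26 in PA, 11.42, 11.30, 11.39 and 11.42 in PMA, 11.23, 11.21, 11.27 and 11.29 in SA and 11.40, 11.18 and 11.36 in OA arrays, against 11.12, 11.15, 11.16 and 11.09 in control arrays. Every acid array lay above every control array, and PMA was the highest group. The type I partner followed with smaller differences. Col1a2 was 11.011, 11.058, 11.085 and 11.063 in PA, 11.216, 11.126, 11.174 and 11.173 in PMA, 11.049, 11.058, 11.100 and 11.084 in SA and 11.192, 10.970 and 11.166 in OA arrays, against 10.948, 10.998, 11.001 and 10.949 in control arrays. Its PA, PMA and SA arrays all lay above control, and OA replicate 2 fell within the control range. Col3a1 was 10.73, 10.76, 10.73 and 10.64 in PA, 10.86, 10.75, 10.77 and 10.83 in PMA, 10.72, 10.76, 10.74 and 10.71 in SA and 10.78, 10.73 and 10.75 in OA arrays, against 10.60, 10.67, 10.70 and 10.67 in control arrays. Col3a1 groups did not overlap in PMA, SA and OA, and PA replicate 4 lay within the control range.

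Col1a1 differed from control by 0.16 ± 0.05 in PA (adjusted p = 0.23), 0.12 ± 0.05 in SA (0.51 adjusted) and 0.19 ± 0.06 in OA (0.156 adjusted), beside the rise in PMA. Col1a2 differed by 0.08 ± 0.05, 0.20 ± 0.05, 0.10 ± 0.05 and 0.14 ± 0.05 in PA, PMA, SA and OA, with a smallest adjusted p of 0.0791 in PMA. Col3a1 differed by 0.06 ± 0.05, 0.14 ± 0.05, 0.07 ± 0.05 and 0.09 ± 0.05. The Col1a1 call in PMA held in 5 of the 19 fits that leave out 1 array (without PA replicate 1, 2 or 3, PMA replicate 2 or OA replicate 2), and without the other 14 in turn its adjusted p was 0.0534 to 0.172. Without PMA replicates 1 and 4 together it was 0.589, and after cyclic loess 0.0823.

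Type V chains join type I fibrils and limit their width, and type XI chains are found in cartilage and elsewhere. Col5a1 was 8.23, 8.25, 8.22 and 8.18 in PA, 8.32, 8.24, 8.32 and 8.28 in PMA, 8.17, 8.18, 8.23 and 8.17 in SA and 8.22, 8.15 and 8.24 in OA arrays, against 8.09, 8.19, 8.16 and 8.16 in control arrays. PMA arrays lay above all controls and the other acids overlapped them. A dimmer second probe set of Col5a1 differed by 4e-04 ± 0.08 in PMA and -0.03 ± 0.09 in OA, against 0.14 ± 0.04 and 0.06 ± 0.05 on the one used. Col5a2 was 8.52, 8.22, 8.38 and 8.24 in PA, 8.41, 8.31, 8.38 and 8.34 in PMA, 8.45, 8.44, 8.52 and 8.39 in SA and 8.49, 8.41 and 8.43 in OA arrays, against 8.26, 8.35, 8.33 and 8.33 in control arrays. SA and OA arrays lay above all controls, and PA arrays spread on both sides of them. Col5a3, chosen for display after its values were seen, had group means of 0.17 ± 0.05 above control in PA, 0.15 ± 0.05 in PMA, 0.18 ± 0.05 in SA and 0.13 ± 0.05 in OA, with adjusted p-values from 0.137 in SA to 0.266 in OA, and its acid and control arrays did not overlap.

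Col11a1 was 7.03, 7.00, 6.95 and 6.95 in PA, 7.16, 7.16, 7.10 and 7.18 in PMA, 7.08, 7.19, 7.18 and 7.10 in SA and 7.26, 7.22 and 7.13 in OA arrays, against 7.00, 6.88, 6.98 and 7.03 in control arrays. PA arrays lay among the controls, and every PMA, SA and OA array lay above them. Col11a1 differed from control by 0.01 ± 0.05 in PA, 0.18 ± 0.05 in PMA (adjusted p = 0.108) and 0.16 ± 0.05 in SA (adjusted p = 0.238), beside the rise in OA. PA lay below OA by -0.22 ± 0.05 (95% interval -0.33 to -0.11, adjusted p = 0.0367), the 1 collagen call among all pairs of acids, where 1.23% of all genes were called lower in PA than in OA. The OA call held without PA replicate 1, 2 or 3, PMA replicate 1 or 2 or SA replicate 4, and without each of the other 13 arrays the adjusted p was 0.0513 to 0.188. The call against OA held in 13 of 19 such fits and was lost without control replicate 3 (0.0503), PA replicate 2 (0.0596) or 4 (0.104), or OA replicate 1 (0.127), 2 (0.102) or 3 (0.0842).

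**Figure D2:**
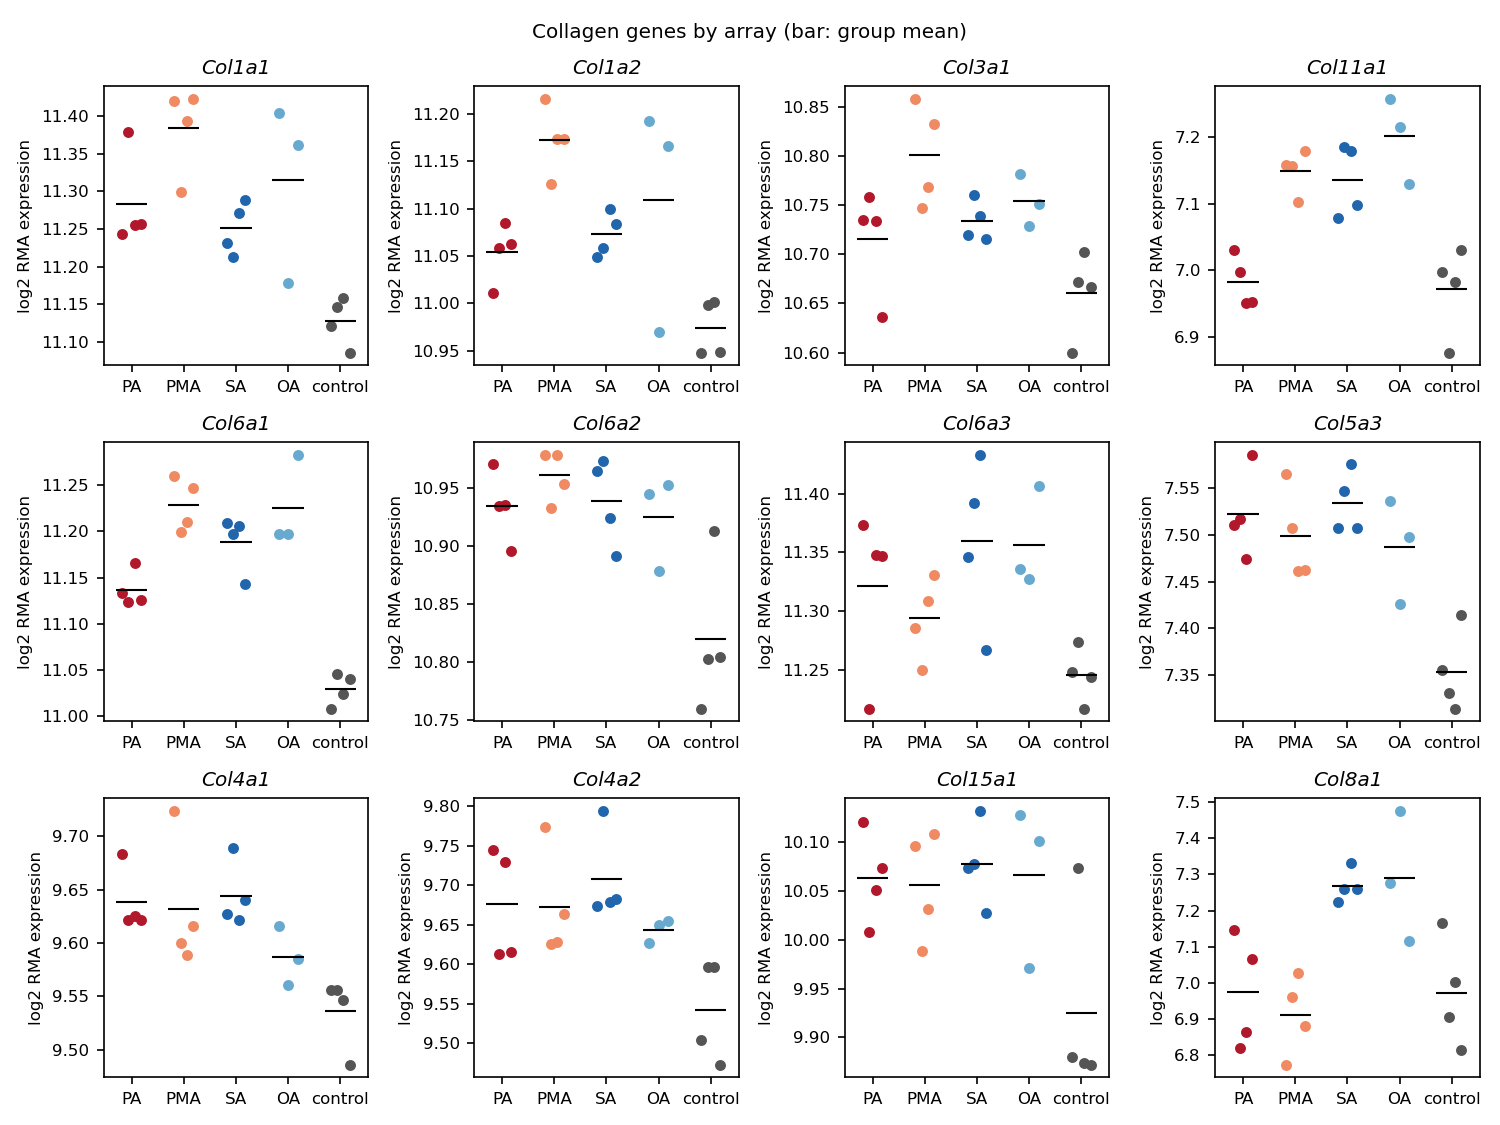
Log2 expression of 12 collagen genes on each of the 19 arrays, by group (PA, PMA, SA, OA, control), with bars at the group means; each panel has its own axis, which does not start at 0. Col6a1 and Col1a1 acid arrays all lie above control, and Col11a1 PA arrays lie with control. Col8a1 has higher means in SA and OA, and these Col8a1 differences did not pass the test.

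Type VI collagen is assembled from 3 different chains, and Col6a1, Col6a2 and Col6a3 were its bright members. Col6a1 was 11.13, 11.12, 11.17 and 11.13 in PA, 11.26, 11.20, 11.21 and 11.25 in PMA, 11.21, 11.20, 11.21 and 11.14 in SA and 11.20, 11.20 and 11.28 in OA arrays, against 11.01, 11.05, 11.02 and 11.04 in control arrays. Acid and control arrays did not overlap, and the control arrays spanned the narrowest range of the 5 groups. Col6a2 was 10.97, 10.94, 10.94 and 10.90 in PA, 10.98, 10.93, 10.98 and 10.95 in PMA, 10.96, 10.97, 10.92 and 10.89 in SA and 10.95, 10.88 and 10.95 in OA arrays, against 10.76, 10.80, 10.91 and 10.80 in control arrays. PMA arrays lay above all controls, while control replicate 3 reached into the other acid groups. Col6a3 was 11.37, 11.22, 11.35 and 11.35 in PA, 11.29, 11.25, 11.31 and 11.33 in PMA, 11.35, 11.39, 11.43 and 11.27 in SA and 11.34, 11.33 and 11.41 in OA arrays, against 11.25, 11.27, 11.22 and 11.24 in control arrays. OA arrays lay above all controls, and PA replicate 2 was at the lowest control value.

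Col6a1 differed from control by 0.11 ± 0.04 in PA (adjusted p = 0.26) and 0.16 ± 0.04 in SA (adjusted p = 0.153), beside the rises in PMA and OA. Col6a2 differed by 0.11 ± 0.05 in PA, 0.14 ± 0.05 in PMA, 0.12 ± 0.05 in SA and 0.11 ± 0.05 in OA, and Col6a3 by 0.08 ± 0.05, 0.05 ± 0.05, 0.11 ± 0.05 and 0.11 ± 0.05. The call of Col6a1 in PMA held in 3 of 19 fits without 1 array (PA replicate 2 or 3, OA replicate 2; otherwise 0.0521 to 0.165), in OA in 5 (PA replicate 2 or 3, PMA replicate 1 or 2, SA replicate 4; otherwise 0.0523 to 0.247) and in the mean of the acids in 5 (PA replicate 1, 2 or 3, PMA replicate 2, OA replicate 2; otherwise 0.0502 to 0.189). Its difference stayed at 0.19 to 0.21 in PMA, 0.17 to 0.21 in OA and 0.16 to 0.17 in the mean. The dim chains Col6a4, Col6a5 and Col6a6 did not pass, and Col6a5 in OA was -0.17 on the probe set used and 0.09 on a dimmer one.

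Type IV chains form the sheet of the basement membrane, and Col4a1 with Col4a2 is its common pair. Col4a1 was 9.68, 9.62, 9.62 and 9.62 in PA, 9.72, 9.60, 9.59 and 9.62 in PMA, 9.63, 9.69, 9.62 and 9.64 in SA and 9.62, 9.56 and 9.59 in OA arrays, against 9.56, 9.56, 9.55 and 9.49 in control arrays. Col4a2 was 9.74, 9.61, 9.73 and 9.62 in PA, 9.77, 9.62, 9.63 and 9.66 in PMA, 9.67, 9.79, 9.68 and 9.68 in SA and 9.63, 9.65 and 9.65 in OA arrays, against 9.50, 9.60, 9.60 and 9.47 in control arrays. For both genes every acid array lay above every control array, though OA replicate 2 of Col4a1 cleared the controls by less than the rounding shown. Col4a1 differed from control by 0.10 ± 0.04 in PA, 0.10 ± 0.04 in PMA, 0.11 ± 0.04 in SA and 0.05 ± 0.05 in OA, and Col4a2 by 0.13 ± 0.05, 0.13 ± 0.05, 0.17 ± 0.05 and 0.10 ± 0.06. None passed, with a smallest adjusted p of 0.234 for Col4a2 in PMA. The other 4 type IV chains, Col4a3 to Col4a6, had differences between -0.07 and 0.16 and none passed.

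Type VIII collagen forms hexagonal networks in vessel walls and remodelling tissue. Col8a1 was 7.14, 6.82, 6.86 and 7.07 in PA, 6.77, 6.96, 7.03 and 6.88 in PMA, 7.22, 7.26, 7.33 and 7.26 in SA and 7.28, 7.48 and 7.12 in OA arrays, against 7.16, 6.90, 7.00 and 6.81 in control arrays. SA arrays lay above all controls and OA replicate 3 within them, while PA and PMA arrays overlapped the control range. Col8a1 differed from control by 0.00 ± 0.09 in PA, -0.06 ± 0.09 in PMA, 0.30 ± 0.09 in SA (adjusted p = 0.199) and 0.32 ± 0.09 in OA (adjusted p = 0.117). Between acids of different chain length it differed by -0.30 ± 0.09 in PA minus SA (adjusted p = 0.157), -0.38 ± 0.09 in PMA minus OA (0.191), -0.32 ± 0.09 in PA minus OA (0.0766) and 0.36 ± 0.09 in SA minus PMA (0.111). None passed. Within a chain length the intervals were -0.12 to 0.24 for PA minus PMA and -0.21 to 0.17 for SA minus OA.

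Col12a1 and Col14a1 sit on the surface of type I fibrils. Col12a1 was 6.96, 6.90, 7.05 and 6.85 in PA, 7.09, 6.96, 6.97 and 7.22 in PMA, 7.07, 7.11, 7.08 and 6.73 in SA and 7.14, 7.09 and 7.27 in OA arrays, against 7.00, 6.93, 6.94 and 6.95 in control arrays. Col14a1 was 5.50, 5.83, 5.56 and 5.68 in PA, 5.70, 5.49, 5.72 and 5.73 in PMA, 5.56, 5.52, 5.68 and 5.64 in SA and 5.64, 5.56 and 5.68 in OA arrays, against 5.63, 5.46, 5.57 and 5.59 in control arrays. Col12a1 was above all controls in OA (0.21 ± 0.08, adjusted p = 0.281) and overlapped them with the other acids, and Col14a1 overlapped them with all 4. The multiplexins Col15a1 and Col18a1 lie in basement membranes, and Col18a1 is the source of endostatin. Col15a1 was 10.12, 10.01, 10.05 and 10.07 in PA, 10.10, 9.99, 10.03 and 10.11 in PMA, 10.07, 10.08, 10.13 and 10.03 in SA and 10.13, 9.97 and 10.10 in OA arrays, against 9.88, 10.07, 9.87 and 9.87 in control arrays. Control replicate 2 lay among the acid arrays, and the other 3 controls lay below all of them. Col18a1 was 8.15, 8.16, 8.15 and 8.22 in PA, 8.22, 8.02, 8.05 and 8.06 in PMA, 7.99, 8.10, 8.05 and 8.09 in SA and 8.15, 7.96 and 7.99 in OA arrays, against 8.05, 7.90, 7.91 and 8.03 in control arrays. PA arrays lay above all controls, by 0.20 ± 0.06 (adjusted p = 0.197, the smallest among collagens in PA, shared with Col5a3).

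The 4 transmembrane chains had differences of 0.09 to 0.33 in PA, 0.05 to 0.21 in PMA, 0.06 to 0.15 in SA and -0.03 to 0.11 in OA. Col13a1, found at cell junctions, had the largest collagen difference in PA, 0.33 ± 0.11 (adjusted p = 0.23). Col28a1 was the 1 collagen below 0 in the mean of the acids, at -0.04, and did not pass.

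The differences varied with the brightness of the probe set. The 9 collagens among the brightest 10% of genes (Col1a1, Col1a2, Col3a1, Col4a1, Col4a2, Col6a1, Col6a2, Col6a3 and Col15a1) had positive differences in every acid, with medians of 0.11 in PA, 0.14 in PMA, 0.12 in SA and 0.11 in OA, against -0.01, 0.06, 0.03 and 0.04 over all genes of that brightness. The 16 collagens in the dimmer 50% had medians of 0.16 in PA, 0.09 in PMA, 0.04 in SA and -0.0026 in OA, against 0.07, 0.06, 0.01 and -1e-04 over all dim genes.

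**Figure D3:**
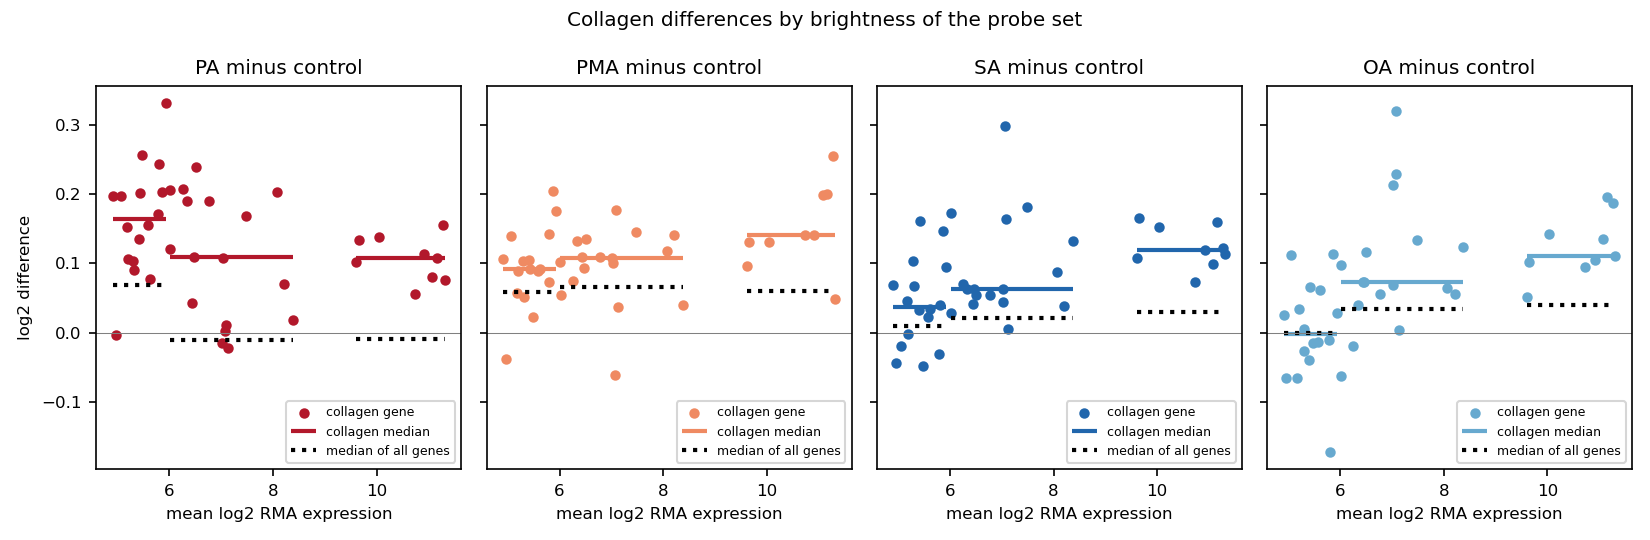
Log2 difference from control against mean log2 expression for each collagen gene (points), in PA, PMA, SA and OA; coloured lines are collagen medians and dotted lines medians of all genes in the dimmer 50%, the brightest 10% and between. The bright collagens lie between 0.05 and 0.26 in all 4 acids, and the dim ones are highest in PA.

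In PA the dim collagens moved with single arrays. Their median deviation from the control mean was 0.31 in PA replicate 2 and 0.21 in replicate 4, the arrays that stand apart, against -0.0027 in replicate 1 and 0.09 in replicate 3, and over all dim genes these values were 0.15, 0.08, -0.0085 and 0.05. The bright collagens did not follow that order, at 0.09 and 0.09 in PA replicates 2 and 4 and 0.13 and 0.12 in replicates 1 and 3. Bright collagens deviated by 0.06 to 0.20 over all 15 acid arrays, against -0.03 to 0.03 over the controls, around whose mean the deviations were taken. Over all bright genes the acid arrays ran from -0.06 in PA replicate 2 to 0.09 in PMA replicate 4.

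**Figure D4:**
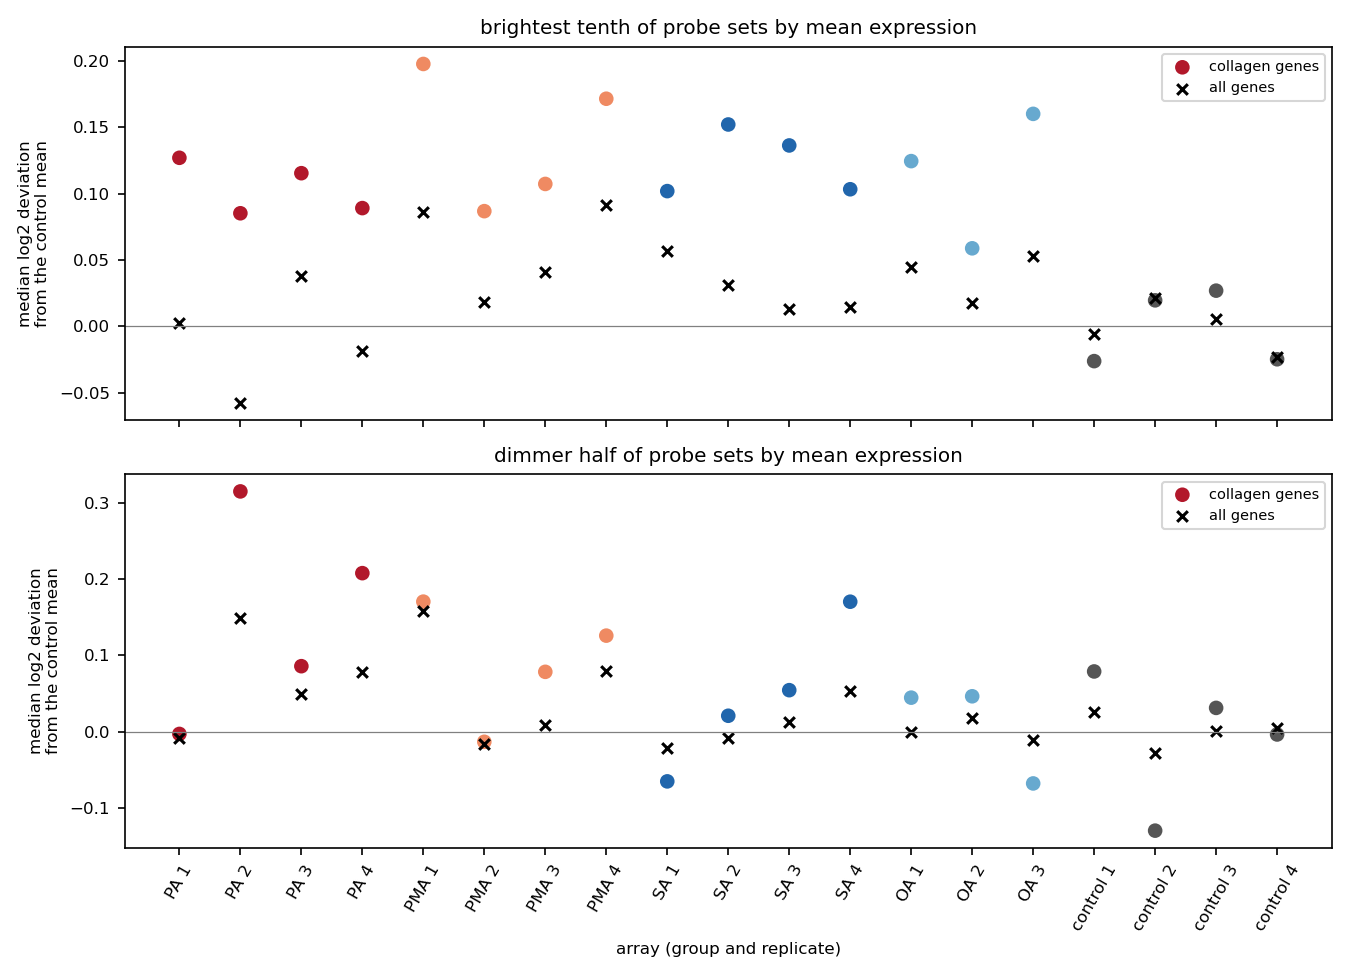
Median log2 deviation from the control mean on each array, for collagen genes (circles, coloured by group) and all genes (crosses), among the brightest 10% and the dimmer 50% of genes. Bright collagens lie above 0.05 on all 15 acid arrays and within 0.03 of 0 on the 4 controls, while dim collagens are highest on PA replicates 2 and 4.

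Acids that differ by the double bond were then set against each other, with PA and SA against PMA and OA. No collagen gene passed, against 0.138% of all genes called higher and 0.414% lower. At an unadjusted p under 0.05 stood 4 collagens, Col11a1, Col12a1, Col1a1 and Col1a2, all lower with the saturated acids (10.1% of all genes were lower at that p), by -0.12 ± 0.04, -0.15 ± 0.06, -0.08 ± 0.04 and -0.08 ± 0.04. The median collagen difference was 0.03, against -0.01 over all genes. The 95% intervals were -0.12 to 0.02 for Col3a1, -0.04 to 0.10 for Col4a1 and -0.08 to 0.06 for Col6a2, which bound a difference without showing that the acids act alike. Over the 6 pairs of acids and the interaction of chain length with the double bond, Col11a1 in PA minus OA was the 1 collagen call. At an unadjusted p under 0.05 by limma stood 10 collagens (23.8%) in PA minus OA, against 21.4% of all genes. The counts were 4 (9.52%) in PA minus PMA against 17.7%, 5 (11.9%) in PA minus SA against 15.8%, 3 (7.14%) in SA minus PMA against 8.82%, 2 (4.76%) in PMA minus OA against 8.61%, 0 in SA minus OA against 2.4% and 0 in the interaction against 5.24%. Collagen shares were thus near or below those of all genes in each pair of acids. At the adjusted threshold 1.92% of all genes were called in PA minus OA, 0.962% in PA minus PMA, 0.143% in PA minus SA, 0.244% in SA minus PMA, 0.0531% in PMA minus OA, 0.0319% in SA minus OA and 0.00531% in the interaction.

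Genes that act on collagen were taken as 6 lists. In PA no gene of these lists passed, and 0% of all genes did. In OA, where 0.457% of all genes rose and 0.404% fell, there rose P4ha3, a subunit of prolyl 4-hydroxylase, which hydroxylates the chains (1 of 20 folding and secretion genes measured), by 0.43 ± 0.07 (adjusted p = 0.00419), and Lox, lysyl oxidase, which crosslinks them (1 of 11 in cleavage and crosslinking), by 0.32 ± 0.07 (adjusted p = 0.0259). Of 18 fibril-binding genes 3 rose in OA: the proteoglycans Fmod, by 0.86 ± 0.09 (adjusted p = 1.3e-05), and Ogn, by 0.56 ± 0.09 (adjusted p = 0.00419), and Thbs2, by 0.23 ± 0.05 (adjusted p = 0.0356). Fmod also rose in PMA, by 0.55 ± 0.08 (adjusted p = 0.0033), and in SA, by 0.39 ± 0.08 (adjusted p = 0.0483), and in PA it differed by -0.08 ± 0.08. Of 14 receptors 2 rose in OA, the collagen-binding integrin chain Itga1 by 0.40 ± 0.09 (adjusted p = 0.0292) and Adgrg6 by 0.55 ± 0.11 (adjusted p = 0.0172). Of 16 genes of the TGF-beta pathway, a known inducer of collagen transcription, Tgif1, a repressor of that pathway, fell in OA, by -0.30 ± 0.07 (adjusted p = 0.041), and none rose. No other TGF-beta gene and none of 13 degradation genes passed in any acid. Among the cell type markers Acta2, a smooth muscle and myofibroblast actin, rose in SA, by 0.36 ± 0.07 (adjusted p = 0.0389), and its part in the SA collagen values was not tested. The other markers of its list did not follow in SA, with Tagln at -0.07 ± 0.10, Cnn1 at -0.05 ± 0.09 and Myh11 at 0.03 ± 0.08. With 1 array left out at a time, P4ha3 and Ogn in OA and Fmod in PMA and OA passed in all 19 fits. Adgrg6 in OA passed in 15 and was lost without control replicate 3 or 4 or OA replicate 1 or 3 (0.0521 to 0.0893). Lox passed in 13 and was lost without control replicate 1, 3 or 4 or any OA replicate (0.0637 to 0.096), and Itga1 was lost without the same 6 arrays (0.0563 to 0.139). Thbs2 was lost without any control or OA replicate or SA replicate 3 (0.05 to 0.191). Tgif1 in OA passed in 6 of 19 fits without 1 array, with a highest adjusted p of 0.189 without OA replicate 2. Fmod in SA passed in 5, up to 0.201 without control replicate 4, and Acta2 in 8, up to 0.169 without that array.

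With the saturated acids together 0.414% of all genes were called lower than with the monounsaturated ones. Of these lists 12 genes were lower: P4ha3 (-0.34 ± 0.05), 7 of 18 fibril-binding genes (Fmod -0.55 ± 0.06, Ogn -0.51 ± 0.06, Fbln1, Dcn, Thbs2, Dpt and Postn), the receptors Antxr1, Antxr2 and Adgrg6, and the protease inhibitor Timp2 (-0.27 ± 0.04). Adjusted p-values ran from 6.26e-05 for Fmod to 0.047 for Adgrg6. All 12 were also lower in PA minus PMA, where 0.962% of all genes were called. Pcolce (-0.22 ± 0.05, adjusted p = 0.0474) and Fap (-0.37 ± 0.07, adjusted p = 0.0149) were lower there too. In PA minus OA, where 1.23% of all genes were called lower, 9 of 18 fibril-binding genes were lower. They were Fmod (-0.94 ± 0.09), Ogn (-0.91 ± 0.09), Dcn, Lum, Prelp, Thbs2, Postn, Dpt and Fbln1. So were P4ha3, Pcolce, Lox, Itga1, Antxr1, Antxr2, Adgrg6, Timp2, Fap and Tgfb3. None of the 12 passed in SA minus PMA (0.244% of all genes called) or in SA minus OA. In SA minus PMA they ran from -0.22 ± 0.06 for Timp2 to -0.01 ± 0.10 for Adgrg6, with P4ha3 at -0.02 ± 0.06. Of the cell type markers, Lep was higher (0.34 ± 0.06, adjusted p = 0.0143) and Cd68 lower (-0.58 ± 0.10, adjusted p = 0.00808) in SA minus PMA. P4ha3, Fmod and Ogn were also lower in PA than in SA (0.143% of all genes called), by -0.48 ± 0.06 (adjusted p = 0.00133), -0.47 ± 0.08 (adjusted p = 0.0123) and -0.52 ± 0.08 (adjusted p = 0.00587). In SA minus OA, where 0.0319% of all genes were called, Fmod differed by -0.47 ± 0.09 (adjusted p = 0.0646) and Ogn by -0.40 ± 0.09 (adjusted p = 0.305), both without overlap of the groups and neither passing. By limma, 0 of 42 collagen chains passed in the saturated contrast. Without PMA replicates 1 and 4, Dcn, Thbs2, Postn, Dpt, Fbln1, Antxr1, Antxr2 and Adgrg6 no longer passed (0.0564 to 0.138), and P4ha3, Fmod, Ogn and Timp2 did. With 1 array left out at a time, these 4 and Antxr1 passed in all 19 fits, and Thbs2, Antxr2 and Fbln1 were lost only without OA replicate 3 (0.064, 0.0823 and 0.0758). Dcn passed in 11 fits, Postn in 11 and Dpt in 10, each with its highest adjusted p without OA replicate 3 (0.104, 0.117 and 0.0942), and Adgrg6 in 4, up to 0.152 without OA replicate 1.

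**Figure D5:**
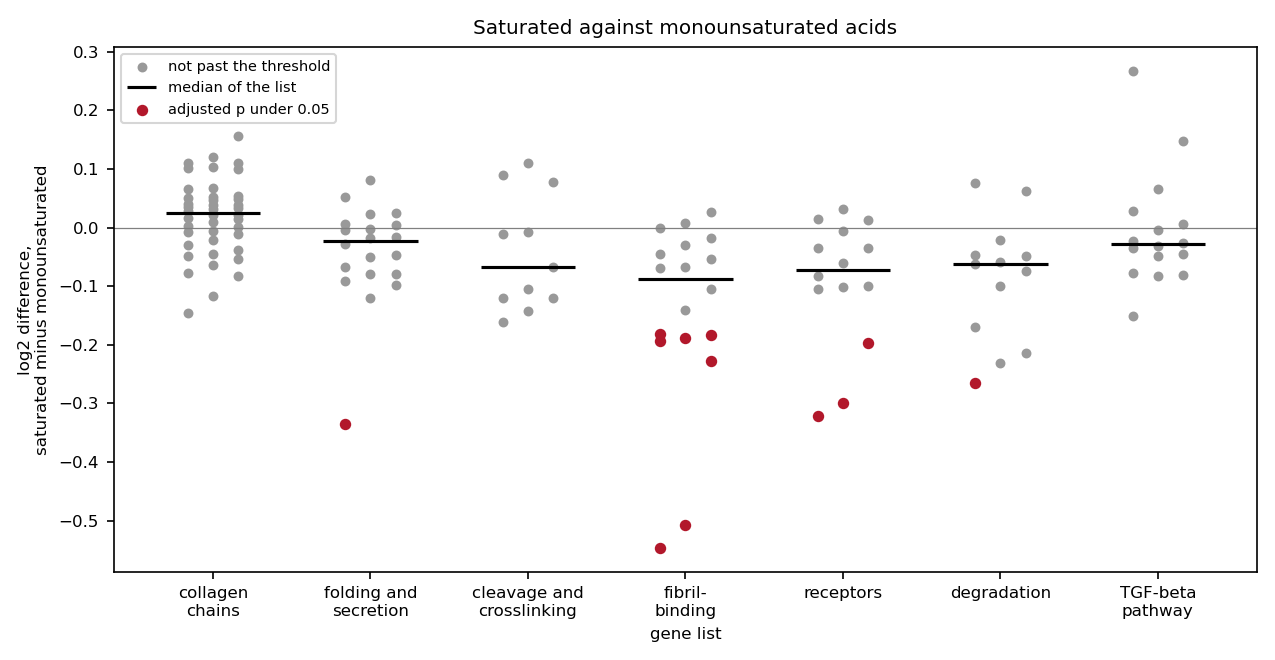
Log2 difference of the saturated acids (PA and SA) from the monounsaturated ones (PMA and OA) for each gene of 7 lists, with the median of each list as a bar; red points have an adjusted p under 0.05. None of the 42 collagen chains is red, while 7 of 18 fibril-binding genes are, all below 0.

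Chains of 1 collagen type were compared over the 19 arrays after each gene's group mean was removed, in 6 pairs. Col1a1 and Col1a2 varied together (Pearson r = 0.827, Spearman rho = 0.707, permutation p for r adjusted over 6 pairs 0.00012, r without the 2 farthest arrays 0.663), as did Col4a1 and Col4a2 (r = 0.769, rho = 0.709, permutation p adjusted 0.00036, 0.641 without 2). Col6a1 and Col6a3 had r = 0.619 and rho = 0.609 (permutation p adjusted 0.00856, 0.47 without 2). Col5a1 with Col5a2 (r = 0.453, rho = 0.542, permutation p adjusted 0.0763 for r and 0.0274 for rho) passed on rho but not on r. Col6a1 with Col6a2 (r = 0.38, rho = 0.451, permutation p adjusted 0.128 and 0.0629) and Col6a2 with Col6a3 (r = 0.165, rho = 0.274, 0.498 and 0.255) passed on neither. All points share the arrays' normalisation, and both chains of a pair share each array's RNA. The permutations shuffled all 19 values freely, although removing the group means ties the values within a group. The permutation p-values may thus be too small.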

How the data were processed

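The deposited values are log2 expression per probe set, made by the authors with RMA, R 2.15.0 and affy 1.34.0, per the submitters' processing notes; 100 ng of RNA per array was used, per the labels. RMA corrects background and brings the arrays' probe values to 1 distribution, and it shrinks differences of dim probe sets. The scans were not used here. Of 35556 probe sets, 23099 were annotated, 21218 with 1 symbol; the brightest per gene gave 18820 genes, with no filter.

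Group means were estimated jointly from the 19 arrays by the linear model of limma (version 3.58.1, run under R 4.3.3, eBayes without trend), with 13 two-sided contrasts adjusted by Benjamini-Hochberg over all genes; the fit was tested on simulated data. Errors are standard errors and intervals 95%; the number of arrays limits the precision. The labels call arrays biological replicates. Same-numbered arrays deviated with correlations of -0.433 to 0.396, so numbers were not taken as pairs. The 42 members and the lists (collagen processing, receptors, TGF-beta, cell type markers) were chosen with earlier results of these data known. Named with every value were collagens past the threshold in any contrast and 15 chains of fat matrix. Of other lists, members past it in the contrasts described for the lists were named. Correlations used 100000 permutations. Alternatives were cyclic loess, leaving out the dimmest genes, every or averaged probe sets, a trended robust spread, a replicate block, only the arrays compared, array weights, and left-out arrays.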

Additional observations from a re-analysis of the deposited data

Results flagged for a closer look

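In groups of 4 arrays the highest or lowest array was compared with its nearest neighbour over the group's range, a test that chance passes in about 1 in 20 groups; 9 of 64 gene groups passed. Lower than the rest of their group were Col12a1 in SA replicate 4 (6.73), Col14a1 in PMA replicate 2 (5.488), Col4a1 in control replicate 4 (9.486) and Col6a3 in PA replicate 2 (11.217). Higher were Col1a1 in PA replicate 2 (11.379), Col4a1 in PA replicate 1 (9.683), Col4a2 in SA replicate 2 (9.794), Col5a1 in SA replicate 3 (8.232) and Col15a1 in control replicate 2 (10.073). PA replicate 2, which stands apart over all genes, is among them for 2 genes.

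Col11a1 differed between 2 acids by the direct test, with PA minus OA at -0.2187 (limma, adjusted p = 0.0367), and all 4 PA arrays lay below all 3 OA arrays.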

How the results depend on the processing

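The collagen calls lie close to the threshold. Collagen genes called numbered 0 in PMA (2 as reported) after cyclic loess, with the replicate block, with only the arrays compared and without PMA replicates 1 and 4, and 1 with averaged probe sets. In SA (0) the count was 1 with a trended robust spread and 2 with array weights. In OA (2) it was 1 after cyclic loess, 0 with the replicate block or only the arrays compared, and 7 with array weights. In the mean of the acids (1) it was 3 without the dimmest 33.3% of genes or with a trended spread, 0 with averaged probe sets, the replicate block or without PMA replicates 1 and 4, and 5 with array weights. In PA minus OA (1) it was 2 without the dimmest 33.3% of genes, with a trended spread or with weights, and 0 with the replicate block, only the arrays compared or without PA replicates 2 and 4. In SA minus PMA (0) it was 1 with only the arrays compared. Collagen genes above control on every acid array numbered 2 (5 as reported) after cyclic loess, an alternative added after seeing the data.

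Leaving out 1 array at a time gave 0 to 2 collagen calls in PA (2 without PA replicate 1), 0 to 3 in PMA, 0 to 2 in OA, 0 to 2 in the mean of the acids, 0 to 1 in PA minus SA and 0 to 6 in PA minus OA (6 without PA replicate 1), and 0 in the other contrasts. The direction turned only for small differences. Under single alternatives these were Col11a1 in PA (-0.0036 with array weights), Col12a1 and Col14a1 in PA (0.0516 and -0.0326 without PA replicates 2 and 4), Col5a2 and Col6a3 in PMA (-0.0225 and -0.0017 after cyclic loess) and Col8a1 in PMA (0.0234 without PMA replicates 1 and 4). With 1 array left out, Col11a1 in PA ran from -0.0216 to 0.0304, Col12a1 in PA from -0.0512 to 0.015, Col5a2 in PA from -0.0408 to 0.057, Col8a1 in PA from -0.0545 to 0.0675 and Col8a1 in PMA from -0.1134 to 0.0041. The cause of these changes was not tested. Over all named genes, 1029 values under other alternatives kept direction and side of the threshold, 56 were no longer past it and 39 came past it.

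Of same-numbered pairs of arrays, 6 of 36 correlated above 0.1, against 19 of 108 others. Whether same-numbered arrays were handled together cannot be told from these correlations. Among all genes, calls in PMA were 36 higher and 14 lower as reported, and numbered 16 with the block, 83 after cyclic loess (11 higher) and 315 with array weights (247 higher). In OA they were 86 higher and 76 lower, and numbered 72, 285 (91 higher) and 1188 (850 higher) in those settings. Dim probe sets lie near the floor of the arrays, where differences are compressed.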
